A study of Homo sapiens with 6 samples.

Results

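The regions described here were 6mA peaks with an adenine run at their summit, that is, nuclear peaks whose 100-bp window centred on the summit held an unbroken run of at least 12 adenines on either strand of the reference. There were 20342 such peaks among the 143532 nuclear peaks of the 4 libraries, and they fell on 15307 different runs, since a run could be found in several libraries. By library, 3831 of 30446 nuclear peaks were members in control 1, 3959 of 33405 in control 2, 6121 of 38842 in si-N6AMT1 1 and 6431 of 40839 in si-N6AMT1 2. The peaks came from 6mA-IP-seq, in which DNA fragments bound by an antibody against N6-methyladenine (6mA) are sequenced, of MDA-MB-453 cells, an established human breast cancer line. The control cells received scramble siRNA and the other cells an siRNA against N6AMT1, which the study examines as a 6mA methyltransferase, both at 10 nM for 48 h. Each group had 2 immunoprecipitated libraries, which the study calls biological replicates, and 1 input library, whose values were not used here. Read totals are not part of the peak lists, and the lowest local background in fragments, which rises with the number of fragments sequenced, was 1.05 and 1.36 in the control libraries against 1.41 and 1.53 in the si-N6AMT1 libraries.

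Adenine runs are among the simplest repeats of the human genome. Many of them are the tails of Alu elements and other retrotransposons, which are copied from polyadenylated RNA, and others are free-standing. Because the modified base is adenine, a run offers many neighbouring adenines on 1 strand and none on the other. An annotation of repeats was not used here.

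Windows of 100 bp at the summits of named regions follow, 5′ to 3′ on the strand where the run is adenine, with the run in capitals and with GRCh37 coordinates. PHC3, KCNMB2, TBX1, GPR83 and the noncoding exon stand for regions called in all 4 libraries, CEP120 for those called only in both control libraries, and ARRDC3-AS1 for those called only in both si-N6AMT1 libraries. The chromosome 7 window holds 1 of the longest runs of any region called in all 4 libraries.
PHC3 intron, chr3:169836789-169836888, plus strand: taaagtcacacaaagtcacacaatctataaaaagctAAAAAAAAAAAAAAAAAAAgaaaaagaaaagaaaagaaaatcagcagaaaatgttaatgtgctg
KCNMB2 intron, chr3:178242874-178242973, minus strand: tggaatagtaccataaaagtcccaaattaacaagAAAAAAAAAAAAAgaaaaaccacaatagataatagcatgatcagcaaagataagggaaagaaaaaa
TBX1 promoter, chr22:19747662-19747761, minus strand: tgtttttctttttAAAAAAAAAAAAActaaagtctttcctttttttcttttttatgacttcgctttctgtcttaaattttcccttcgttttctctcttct
GPR83 promoter, chr11:94133686-94133785, plus strand: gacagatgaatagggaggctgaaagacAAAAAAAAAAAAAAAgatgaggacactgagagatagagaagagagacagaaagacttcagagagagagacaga
Noncoding exon of ENSG00000276509, chr1:145200725-145200824, minus strand: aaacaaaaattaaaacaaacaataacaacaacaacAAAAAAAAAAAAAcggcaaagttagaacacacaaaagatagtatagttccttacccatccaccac
CEP120 intron, chr5:122745634-122745733, plus strand: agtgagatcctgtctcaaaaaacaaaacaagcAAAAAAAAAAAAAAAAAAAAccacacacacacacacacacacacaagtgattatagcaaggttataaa
ARRDC3-AS1 intron, chr5:90816717-90816816, plus strand: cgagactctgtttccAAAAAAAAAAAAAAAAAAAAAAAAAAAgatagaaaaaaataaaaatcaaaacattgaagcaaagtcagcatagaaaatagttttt
Intergenic sequence of chromosome 7, chr7:89380607-89380706, plus strand: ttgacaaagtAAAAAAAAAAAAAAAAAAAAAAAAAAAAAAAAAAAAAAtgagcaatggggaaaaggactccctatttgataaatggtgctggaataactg

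Runs were concentrated at the summits. They were found in 12.6% of nuclear peaks in control 1 (95% exact binomial interval 12.2% to 12.96%). The shares were 11.9% in control 2 (11.5% to 12.2%), 15.8% in si-N6AMT1 1 (15.4% to 16.1%) and 15.7% in si-N6AMT1 2 (15.4% to 16.1%). The intervals cover counting error only. Windows of the same length 1000 bp to either side of the same summits held a run in 2.14%, 2.20%, 2.25% and 2.22% of cases, close to the 2.20% of all positions of the genome. The summit exceeded its flanks by 11.8 ± 2.03 percentage points (SD, n = 4 libraries), with a difference above 0 in all 4 (exact sign-flip permutation test over libraries, two-sided p = 0.125, the smallest it allows). The excess was 5.88-fold and 5.39-fold in the control libraries against 6.999-fold and 7.08-fold in the si-N6AMT1 libraries. Windows centred 100 bp from the summit still held a run in 4.44% to 5.13% of cases, and from 500 bp on the share was between 1.94% and 2.43%.

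**Figure D1:**
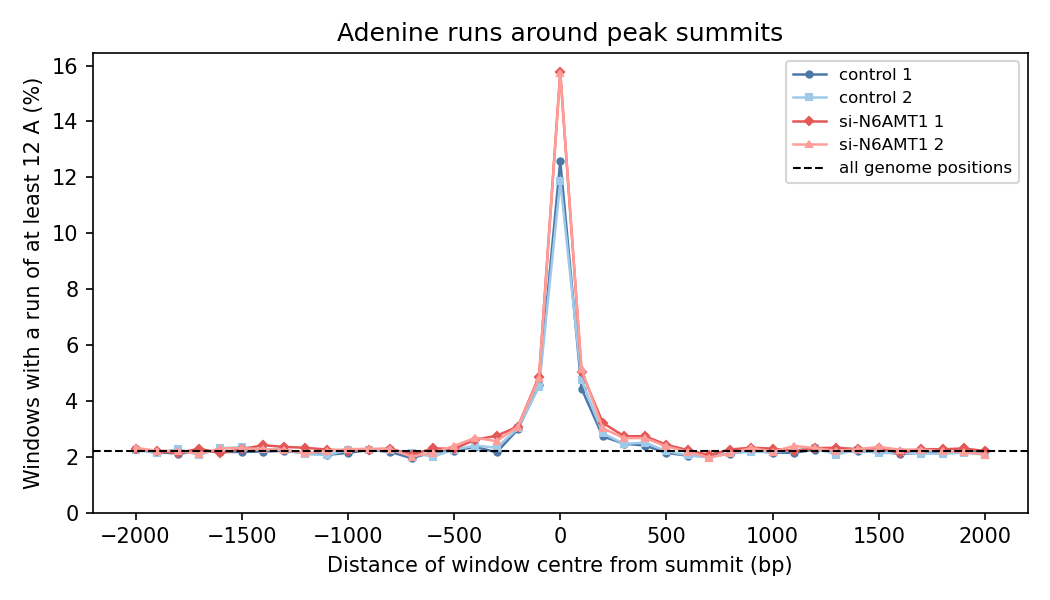
Percentage of 100-bp windows that hold a run of at least 12 adenines (vertical axis) against the distance of the window centre from the summit in bp, for all nuclear peaks of each of the 4 libraries. The dashed line is the share of all genome positions, 2.20%, and the lines leave it only near the summit, where they reach 11.9% to 15.8%.

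In most members the summit base itself was not inside the run. It was inside in 22.99% to 25.4% of members, and the run came within 10 bases of the summit in 52.3% to 56.1%. A run fills only part of the 100-bp window, and the shares that even placement would give were not computed. Read in the direction in which the run is adenine, the centre of the run was on the 5′ side of the summit in 60.8% and 60.5% of the control members and in 66.6% and 64.0% of the si-N6AMT1 members. The median run had 16 adenines in both control libraries and 17 in both si-N6AMT1 libraries. The longest run had 50. Between 1.77% and 2.34% of members had more than 1 such run in the window. In the reference orientation the adenines were on the plus strand in 49.9% to 51.2% of members, so neither reference strand prevailed.

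Of the 672491 runs of this length in the genome, 2.28% lay at the summit of a peak of at least 1 library. The share differed by run length. A longer run can meet the rule from more summit positions, which raises its share by construction. Of the genome's runs of 12 to 13 adenines, 0.476% and 0.516% were at a summit in the control libraries against 0.624% and 0.683% in the si-N6AMT1 libraries. For runs of 23 to 26 adenines these shares were 0.710% and 0.688% in control against 1.38% and 1.26% in si-N6AMT1. They dropped again for runs of 32 or more, to between 0.363% and 0.678%. The mean si-N6AMT1 share was 1.32 times the mean control share for the shortest runs and 1.93 times for runs of 27 to 31 adenines, and both si-N6AMT1 libraries were above both control libraries in each of the 8 length classes. These shares grow with the number of peaks, and the si-N6AMT1 lists held 1.25 times as many peaks. As a share of the peaks of a library, runs of 12 to 13 adenines were at 2.86% and 2.83% in control and, at 2.94% and 3.06%, 1.05 times as common in si-N6AMT1. Runs of 27 to 31 adenines were 1.53 times as common, at a mean of 0.696% of peaks after 0.454% in control. By this measure too the groups did not overlap in any of the 8 classes.

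**Figure D2:**
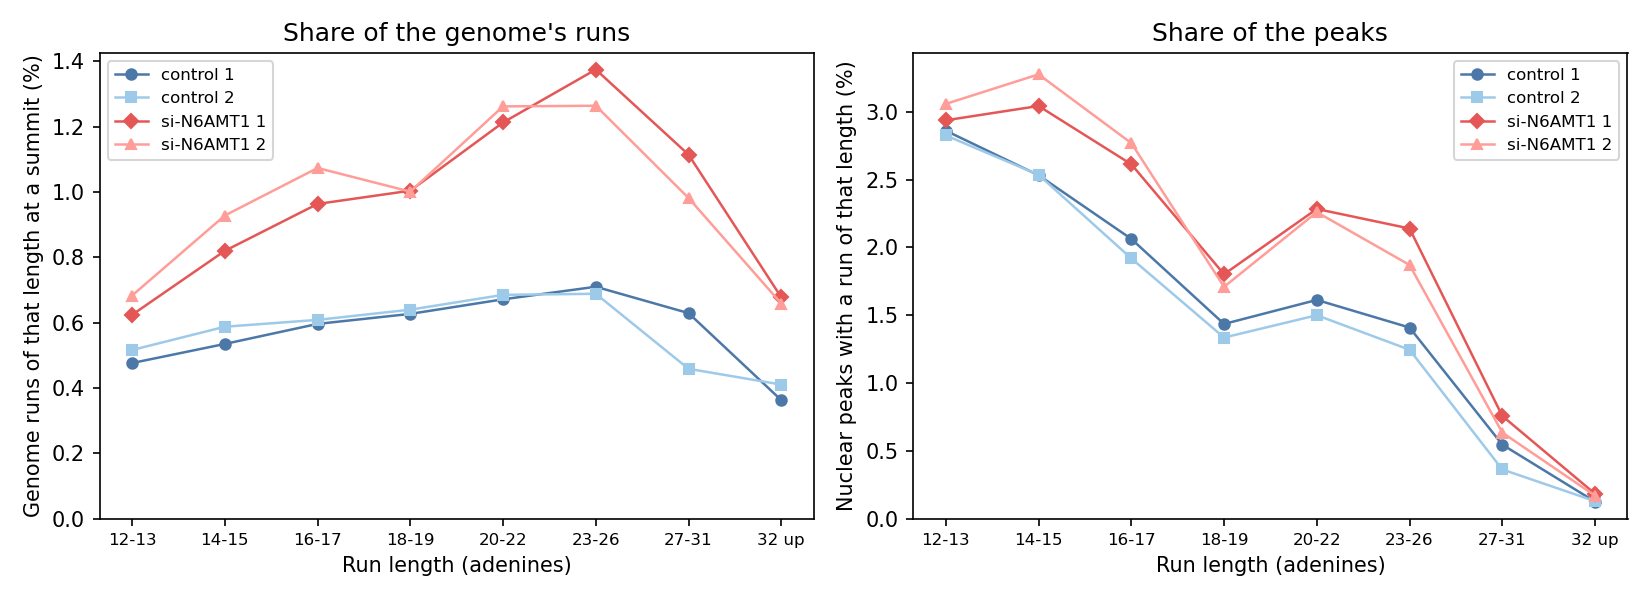
Left, percentage of all GRCh37 runs of a given length that lie at a summit (vertical axis) by run length in adenines, with 1 line for each library. Right, percentage of a library's nuclear peaks that have a run of that length. In both panels the si-N6AMT1 libraries stay above the control libraries, least clearly for runs of 12 to 13 adenines on the right.

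The sequence beside the runs was compared with that beside all runs of the genome. The most frequent 12 bases within 40 bases before the run, read in the direction in which the run is adenine, were actCCAGCCTGg, a stretch known from the right arm of Alu elements, whose adenine tail follows it. They preceded 15.9% and 18.3% of control members and 22.8% and 21.9% of si-N6AMT1 members, against 29.3% of all runs of the genome. The 8 capital letters, CCAGCCTG, were then searched for within 320 bases before the run. They were present for 34.0% and 36.1% of control members, 44.1% and 41.6% of si-N6AMT1 members and 53.6% of all genome runs. The same letters on the opposite strand, CAGGCTGG, were present for 1.92% to 2.58% of members and 3.90% of genome runs. In 2200 of the 15307 runs, or 14.4%, CCAGCCTG began exactly 32 bases before the run, and this was its most common distance. By these letters, runs at summits had this neighbour less often than genome runs in all 4 libraries, and less often in both control libraries than in both si-N6AMT1 libraries. These are descriptions of letters and were not tested.

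After the run, adenine went on. The 30 bases that followed held 47.9% to 48.8% adenine and 16.03% to 16.5% thymine in the 4 libraries, whereas after all runs of the genome they held 35.8% adenine and 25.6% thymine. The most frequent 12 bases within 100 bases after the run were aaagaaaagaaa, found for 5.81% to 7.83% of members and for 2.302% of genome runs. The 30 bases before the run were also richer in adenine, at 35.0% to 37.3% against 28.9%. Over 1000 bp, the median GC content around members was 37.8% and 37.9% in control against 39.3% and 38.9% in si-N6AMT1, and around peaks without a run it was 38.6% to 39.2%.

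The first comparison between groups asks whether adenine runs made up a different part of the peaks after N6AMT1 siRNA. The share was 12.2% ± 0.517 (SD, n = 2) in control and 15.8% ± 0.00814 (n = 2) in si-N6AMT1, higher by 3.54 percentage points or 1.29-fold, and the groups did not overlap. With 2 libraries against 2, the exact permutation test gave a two-sided p of 0.333, the smallest it allows. The flanking windows gave 2.17% and 2.24%. Both si-N6AMT1 libraries exceeded both control libraries in 9 of 10 deciles of the peak lists by strength and on 22 of the 23 chromosomes other than Y, the exception being chromosome 18 with 83 members. Of the difference, 2.47 points came from runs with CCAGCCTG before them, whose share of all peaks was 4.28% and 4.27% in control against 6.95% and 6.56% in si-N6AMT1. The other runs made up 8.30% and 7.58% against 8.81% and 9.19%, a difference of 1.06 points. Sequencing depth, seen only through the lowest background, moved with the group too. Its part in the difference cannot be told apart from that of the siRNA. The 2 libraries with the closest lowest backgrounds, control 2 at 1.36 and si-N6AMT1 1 at 1.41, had shares of 11.9% and 15.8%. That pair is 1 library of each group, and the part of depth was not tested.

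Members were weaker than other peaks in every library. The fold enrichment is the pileup at the summit over the local background with 1 added to each. Its median was 6.95 for members against 7.49 for peaks without a run in control 1, 6.64 against 7.01 in control 2, 6.56 against 7.04 in si-N6AMT1 1 and 6.33 against 6.73 in si-N6AMT1 2. The difference was -0.45 ± 0.0778 (SD, n = 4), lower in 4 of 4 libraries (exact sign-flip permutation test, two-sided p = 0.125, the smallest it allows). The median −log10 q, by which the peak caller ranks its confidence, was lower by 0.856 to 1.07, and the median width of 418 to 425 bp was lower by 23 to 30 bp, each in 4 of 4 libraries (exact sign-flip permutation test, two-sided p = 0.125 for both). The gap was widest among strong peaks: the 95th percentile of the fold was 9.10 to 10.4 for members and 11.5 to 13.8 for other peaks, while the 5th percentiles were 4.32 to 4.81 and 4.36 to 4.85. The median pileup that fold and p imply was 16 to 18 fragments for members and 17 to 19 for other peaks. The median local background was higher at members in all 4 libraries, by 0.0419 to 0.0981 fragments.

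The share of peaks with a run was nearly level over the weaker peaks and dropped at the top of the lists. In the weakest decile by −log10 q it was 13.8% and 14.2% in control against 18.2% and 17.9% in si-N6AMT1. In the strongest decile it was 4.07% and 5.33% in control against 4.71% and 4.80% in si-N6AMT1, so that the groups overlapped there. The strongest decile still exceeded the flanking windows of all nuclear peaks, at 2.14% to 2.25%. Flanks of that decile alone were not counted. The rule does not set members apart sharply: peaks with a longest run of exactly 12 adenines had a median fold of 6.46 to 7.17 over the libraries, and those with exactly 11, which are not members, had 6.37 to 7.26.

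**Figure D3:**
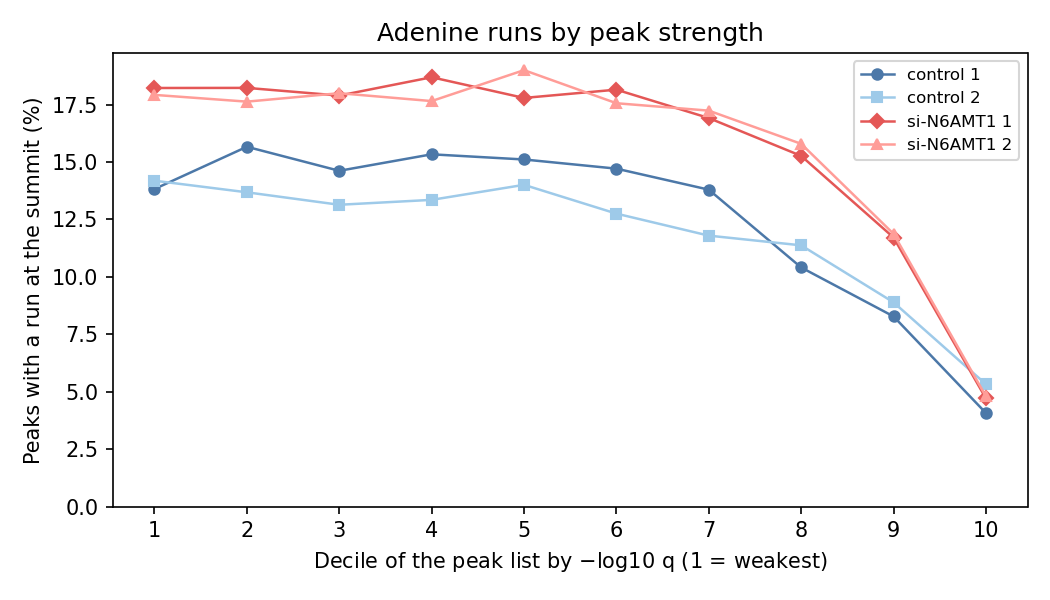
Percentage of nuclear peaks with a run at the summit (vertical axis) in each decile of a library's peaks ranked by −log10 q, from the weakest at 1 to the strongest at 10. The si-N6AMT1 lines lie above the control lines in deciles 1 to 9, and all 4 lines drop to between 4.07% and 5.33% in decile 10.

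Most members lay in introns. Introns held 59.3% and 59.6% of control members and 59.9% and 57.8% of si-N6AMT1 members, against 52.1% to 52.5% of peaks without a run. The difference of 6.83 ± 0.800 percentage points (SD, n = 4) was above 0 in 4 of 4 libraries (exact sign-flip permutation test, two-sided p = 0.125, the smallest it allows). Runs themselves favour introns: introns made up 52.6% of all genome positions and 57.6% of the positions whose window holds a run. Intergenic sequence held 37.7% to 39.9% of members and 38.1% of the genome's run windows.

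Promoters and exons held few members. Promoters, within 1000 bp of a transcription start site, held 1.57% and 1.26% of control members and 1.86% and 1.71% of si-N6AMT1 members, lower than the 2.22% to 2.61% of other peaks in 4 of 4 libraries and below the 2.54% of genome run windows. Exons held 0.328% to 0.705% of members and 0.750% to 0.835% of other peaks, against 1.71% of genome run windows. Both differences had an exact sign-flip permutation p of 0.125 (two-sided, the smallest it allows). Of the 27, 13, 35 and 36 exonic members of the 4 libraries, 18, 8, 24 and 23 lay in 3′ UTRs and 2, 0, 0 and 1 in coding sequence.

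Within introns the runs had a preferred strand. Among members in introns of genes on 1 strand, the adenines were on the sense strand, that of the transcript, in 24.6% of 2153 and 24.8% of 2246 members in control and in 24.9% of 3481 and 26.2% of 3530 members in si-N6AMT1. The mean was 25.1% ± 0.711 (SD, n = 4), below 50% in 4 of 4 libraries (exact sign-flip permutation test, two-sided p = 0.125, the smallest it allows). Of all 367873 intronic runs of the genome, 42.6% had their adenines on the sense strand. Members with CCAGCCTG before the run were at 25.1% to 27.4% and those without it at 24.3% to 25.2%, and runs of 12 to 15 adenines were at 21.8% to 24.0%. In intergenic sequence, where there is no transcript to refer to, 50.3% to 52.5% of member runs were adenine on the plus strand.

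Intronic peaks without a run leaned the same way, toward thymine on the sense strand. Among intronic peaks without a run, 30.2% to 30.6% had more adenine than thymine on the sense strand of the summit window. In the windows 1000 bp to either side of those peaks the share was 36.2% to 36.9%.

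**Figure D4:**
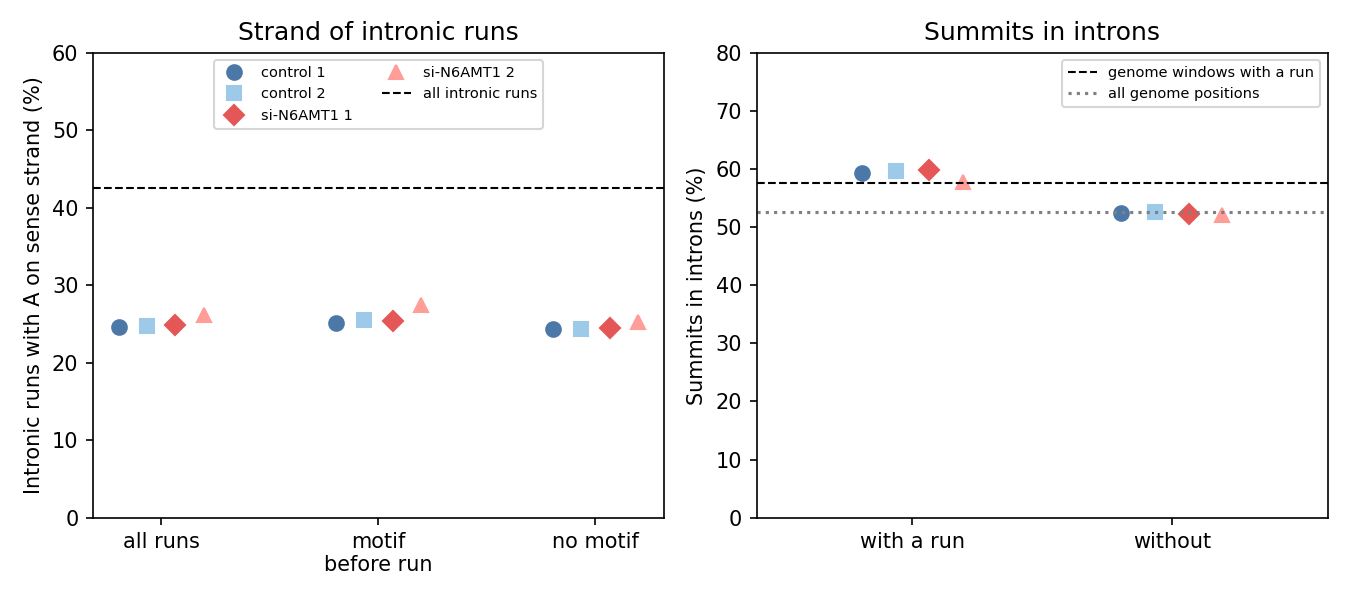
Left, percentage of intronic member runs whose adenines are on the sense strand of the gene (vertical axis), for all runs and for runs with and without CCAGCCTG within 320 bases before them, 1 point for each library. Right, percentage of summits in introns for peaks with and without a run. All strand values lie between 24.3% and 27.4%, below the dashed line of all intronic runs at 42.6%.

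Peaks with a run were found again less often. A peak of the other replicate overlapped 44.8% of members and 60.3% of other peaks in control 1, 40.8% and 55.0% in control 2, 43.5% and 59.8% in si-N6AMT1 1, and 41.2% and 57.0% in si-N6AMT1 2. Members were lower by 14.2 to 16.2 percentage points, in 4 of 4 libraries (exact sign-flip permutation test, two-sided p = 0.125, the smallest it allows). The lower strength of members moved with this, and members were below other peaks in each of the 5 strength classes of each library. In the strongest quintile, 72.8% to 81.6% of members and 89.2% to 91.1% of other peaks were overlapped. Members with CCAGCCTG before the run were overlapped in 32.6% to 38.4% of cases and the other members in 45.2% to 49.6%.

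Where a member was found again, the overlapping peak often had a run as well, which was not required to be the same run. The overlapping peak of the other replicate had a run at its own summit in 56.9% and 60.5% of cases in control against 59.6% and 59.8% in si-N6AMT1. For peaks without a run it was 3.98% to 5.49%. Both summits were a median of 35 to 40 bp apart for members and 51 to 53 bp for other peaks. The 100-bp windows of summits this close share sequence, which by itself favours a run in both.

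**Figure D5:**
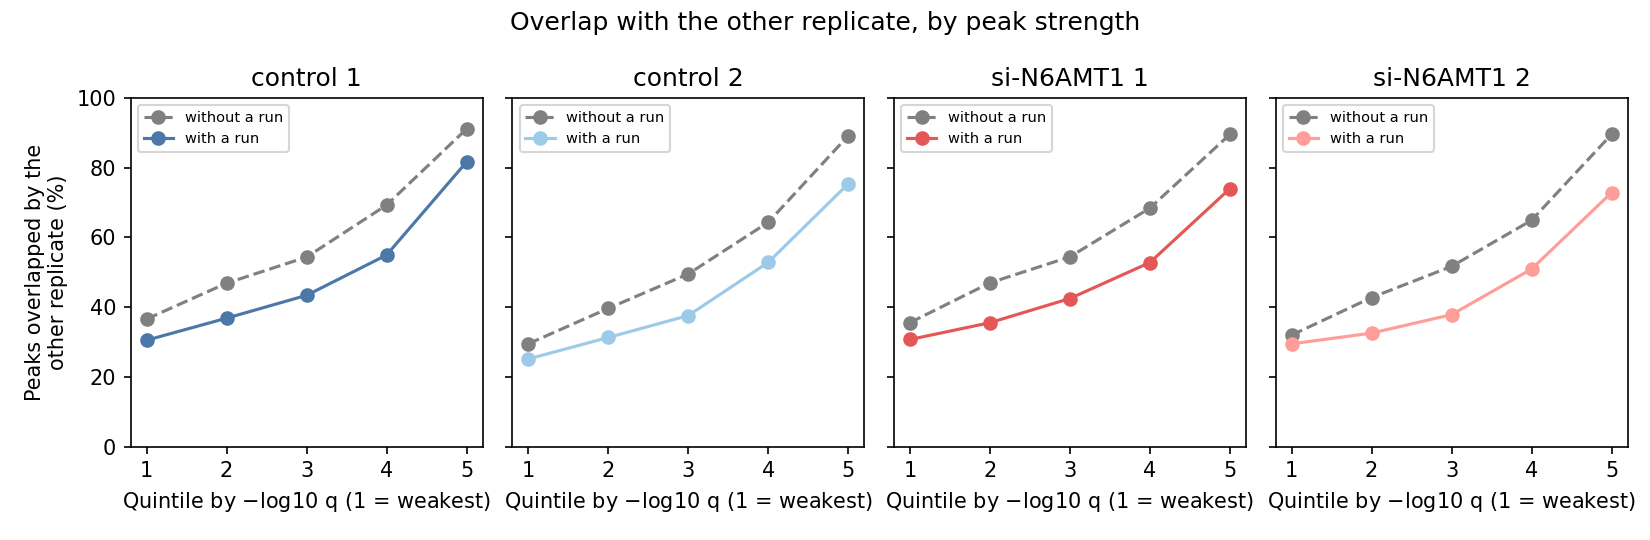
Percentage of peaks overlapped by at least 1 bp by a peak of the other replicate (vertical axis) in each quintile of a library's peaks by −log10 q, for members (solid line) and for peaks without a run (dashed line), with 1 panel for each library. The solid line is the lower one in all 20 classes.

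Overlapping peaks of the 4 libraries were merged into 72532 nuclear regions, of which 14911, or 20.6%, had a run at the summit of at least 1 of their peaks. Regions called in all 4 libraries numbered 1831, or 12.3% of those with a run, against 17.9% of regions without and 16.7% of all nuclear regions. A region with more peaks has more chances to hold a run under this definition, and 265 of the 1831 had a run at every summit. Of regions with a run, 374, or 2.51%, were called in both control libraries and in no si-N6AMT1 library, against 2.63% of all nuclear regions. The reverse held for 1116 regions, or 7.48%, against 5.86% of all nuclear regions and 5.44% of regions without a run. Regions called only in si-N6AMT1 thus outnumbered those called only in control 2.98-fold among regions with a run and 2.05-fold among the others. With equal numbers of peaks from each library the counts were 617 and 469, a ratio of 1.32, beside a ratio of 0.920 for regions without a run. These counts are over regions and carry no test.

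Among the regions called in all 4 libraries, the strongest with a run at every summit lay in an intron of PHC3, which encodes a polyhomeotic protein of Polycomb repressive complex 1, at chr3:169836538-169837075. Its fold was 11.9 and 11.8 in control against 9.79 and 9.33 in si-N6AMT1. The KCNMB2 intron region at chr3:178242637-178243206, in a gene for a beta subunit of calcium-activated potassium channels, had folds of 11.04, 8.77, 8.05 and 8.03 in the same order, and it was added to the named ones after the values were seen. The next of the added regions, in an intron of LINC02006 at chr3:153118728-153119223, had folds of 14.2, 10.2, 10.9 and 10.9. The first and second were higher in both control libraries than in both si-N6AMT1 libraries, and the one in LINC02006 was not. Folds of different libraries rest on different backgrounds. The ranking was by −log10 q and not by fold. Local background was 3.87 to 5.32 fragments at PHC3, 3.98 to 6.84 at KCNMB2 and 2.03 to 2.92 at LINC02006. The medians of members were 1.35 to 1.89. The region of highest rank, an intergenic one of 2247 bp at chr20:48234431-48236677, had folds of 18.98, 12.2, 16.4 and 19.8, but its run lay at a weaker peak of 1 library and not at the strongest summits. The other of the 3 regions of highest rank, at chr3:168774029-168774552, had the run at the summit in control 2 alone, with a fold of 8.18 there.

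Promoters of 23 regions with a run were called in all 4 libraries. The strongest was 822 bp inside GPR83, which encodes a G protein-coupled receptor, at chr11:94133399-94134036, with folds of 19.2, 14.9, 11.3 and 12.8 for control 1, control 2, si-N6AMT1 1 and si-N6AMT1 2. Its run of 15 adenines was at the summit in all but control 2. The region at -589 bp from the start site of TBX1, a T-box transcription factor of pharyngeal and heart development, at chr22:19747425-19748012, had the run at every summit and folds of 11.2, 9.49, 12.01 and 11.9. The region of the long noncoding RNA gene LINC02398 at chr12:20168350-20168787 also had it at every summit, with folds of 8.17, 7.97, 9.06 and 7.93. At the start of MIR583HG, a host gene of a microRNA, at chr5:95385375-95386103, a run of 28 adenines was at the summit in control 1 alone, where the fold was 8.37. The promoter regions thus differed in whether the run and the summit coincided in every library.

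Exonic regions called in all 4 libraries were 6. In 4 of them the run was at every summit: a noncoding exon of ENSG00000276509 on chromosome 1, the 3′ UTRs of ITM2B, an integral membrane protein gene, and SDC4, which encodes the heparan sulfate proteoglycan syndecan-4, and the 5′ UTR of CHORDC1, an HSP90 cochaperone gene. The noncoding exon at chr1:145200500-145201092 had folds of 14.2, 12.2, 9.30 and 12.4. ITM2B had folds of 10.6, 7.97, 8.19 and 7.34, SDC4 of 7.16, 7.61, 6.67 and 7.27, and CHORDC1 of 6.83, 6.23, 8.05 and 10.2. All 3 UTR runs were antisense, with thymines in the transcript. The others were in the 3′ UTR of PABPN1, which encodes a nuclear poly(A)-binding protein, with the run at the summit in 2 libraries, and in an exon of the divergent transcript FLVCR1-DT, with the run in 1.

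The strongest region called only in both control libraries was in an intron of CEP120, a gene of centriole assembly, at chr5:122745443-122745981, with folds of 13.6 and 13.1 and a run of 20 adenines at both summits. It was followed by an intron of HFM1, a meiotic DNA helicase gene, at chr1:91824885-91825390 with folds of 12.2 and 14.4, and by intergenic sequence at chr4:35362953-35363613 with folds of 11.2 and 12.7. Of the 3 called only in si-N6AMT1, an intron of the noncoding RNA gene ARRDC3-AS1 at chr5:90816530-90816983 had folds of 9.44 and 9.25 and a run of 27 adenines at both summits. Intergenic sequence at chr13:35300930-35301457 had folds of 9.95 and 11.04. An intron of LINC01181, the highest ranked of the 3, had folds of 10.2 and 9.02. Its run was at the summit in si-N6AMT1 1 alone. Absence from a peak list says only that the threshold was not passed there.

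The longest runs of regions called in all 4 libraries had 39, 38 and 38 adenines, and their folds were 3.28 to 4.14 in the intergenic region of chromosome 9, 6.33 to 7.93 in an intron shared by MGLL and KBTBD12 on chromosome 3 and 5.36 to 6.51 in the intergenic region of chromosome 7. The run was at the summit in only 1, 1 and 2 of the libraries. The folds of chromosomes 9 and 7 lay below the median fold of members in each library. On chromosome 3 the run was at the summit in control 1 alone, where the fold of 6.33 was below the median of 6.95, and the 3 libraries above their medians had no run at their strongest summit.

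By gene, NAALADL2, a large gene of the glutamate carboxypeptidase family, had the most regions with a run called in all 4 libraries, 9 of its 31 regions with a run, out of 76 regions in a gene of 1372 kb. AEBP2, which encodes a cofactor of Polycomb repressive complex 2, followed with 7, and 14 of its 27 regions had a run, or 51.9%. STXBP5L, which encodes a regulator of vesicle fusion, had 6. ZNF148, a zinc finger transcription factor gene, RSRC1, a splicing factor gene, the glutamate receptor gene GRM5, KCNMB2 and DLG2, which encodes a synaptic scaffold protein, had 5 each, and LMBR1 and the noncoding LIX1-AS1 had 4 each. In ZNF148, the shortest of these genes at 150 kb, 8 of 14 regions had a run, or 57.1%, against 20.6% of all nuclear regions. The genes were picked for their number of regions with a run in these data, which by itself favours a high share. NAALADL2, STXBP5L, ZNF148, RSRC1 and KCNMB2 all lie on chromosome 3. Its mean share of peaks with a run over the 4 libraries, 16.8%, was the highest of any chromosome. The adenines were antisense in 10 of the 11 run regions of RSRC1 and in 4 of 4 of LMBR1, but in 7 of 15 of STXBP5L and 17 of 31 of NAALADL2. Run regions per 100 kb ranged from 1.25 in GRM5 to 5.35 in ZNF148 over these 10 genes, and no test was made of these counts.

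The genes that the study examined were looked at one by one. Within the gene bodies and 5000 bp to either side of 7 of its cell cycle regulators, N6AMT1 and the adenine demethylase or methylase genes ALKBH1 and METTL4, there were 22 regions, and 4 of them had a run, or 18.2%, near the 20.6% of all nuclear regions. RB1, the retinoblastoma tumour suppressor gene, had 12 regions, and 2 held a run. The first, at chr13:48886782-48888081 in an intron, was called in all 4 libraries with folds of 7.41, 6.66, 6.73 and 8.78, and its antisense run of 12 adenines was at the strongest summit in 3 of the 4. The second, at chr13:49146247-49146657 beside a transcription start site within the gene, was called in si-N6AMT1 1 alone with a fold of 7.95 and a run of 21. LATS2, a Hippo pathway kinase gene, and REST, a repressor of neuronal genes, had 1 intronic region with a run each, both called in si-N6AMT1 1 alone, with folds of 4.97 and 5.36. CDKN1A, MDM2, TIPRL and N6AMT1 had 1 region each and METTL4 had 2, none with a run. BTG1 and ALKBH1 had no region of either kind.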

How the data were processed

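Per the study's methods, reads were filtered (Trimmomatic), placed on hg19 (bowtie2) and stripped of duplicates (SAMtools) by the authors, and MACS version 2 then called the peaks of each immunoprecipitated library alone at a p-value of 1e-05. The submitters' processing notes name Bowtie2 2.3.5 and SAMtools 1.9. Which input served each call is not given in the sources used here. The deposited lists give each peak's position and summit, a score, the fold enrichment (a ratio with 1 added to pileup and background), and the −log10 p and −log10 q values at the summit as the authors' peak caller wrote them. The score was not used. Removal of duplicates can understate pileups over repeats, and how reads were placed among repeat copies limits which runs can be seen.

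Here, runs were counted in the GRCh37 primary assembly, used for hg19 (0 peak ends lay past a chromosome end), on the 24 nuclear chromosomes. The longest run in the window gave strand and neighbours, and among equally long runs the one nearest the summit did. Where a window edge fell inside a run, the run was counted if at least 12 of its adenines lay in the window. Genes were the basic transcripts of GENCODE v44 lifted to GRCh37, with promoters, then exons, introns and intergenic sequence. Pileup and background were solved from fold and p, and the pileup came out whole, within 0.02, for 100% of peaks. Overlap meant at least 1 bp. Groups came from the sample titles. Groups were compared by exact permutation of the libraries (6 assignments), and peaks with and without a run by exact sign flips over the 4 libraries (16 patterns). Neither can reach 0.05. Counting steps were tested on simulated data. Python 3.11.15, numpy 2.4.6, pandas 2.3.3, scipy 1.17.1, pysam 0.24.0, matplotlib 3.10.9 and samtools 1.23.1 were used.

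The members, gene lists and tests were chosen with earlier results of these data known. Named regions were the 10 promoter, 6 exon and 3 other regions with a run called in all 4 libraries, the 3 called only in each group, ranked by their lowest within-library percentile of −log10 q, and the 3 with the longest run. Named genes were the 10 with most regions with a run in all 4 libraries and those of the study, of which 1 is not reported here. The letters searched beside runs were chosen after the data were seen. Alternatives were another minimum run, window, strength threshold, number of peaks, overlap, region definition, promoter, flank and set of libraries.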

Additional observations from a re-analysis of the deposited data

How the results depend on the processing

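The 13 results were recomputed under other settings, and none of the 157 values reversed direction. Part of these could not: counts of regions have no direction, and restriction to the nuclear chromosomes left the data unchanged. The limit on how far a value may move was applied to the values over regions alone, of which 14 passed it. The other results were judged by direction, and some of them moved far: the summit excess over the flanks of 11.8 points was 7.74 with windows of 50 bp and 15.4 with windows of 200 bp. The tests could not pass 0.05 under any setting, so their p-values say nothing about stability. A replicate block, pairing libraries by number, leaves the si-N6AMT1 minus control share at 3.54 percentage points by construction. Its exact sign-flip permutation p was 0.5, the smallest 2 pairs allow. Over regions with a run, deviations of libraries with the same number correlated at 0.00531, and the numbers were not taken to pair libraries. Without CCAGCCTG-preceded runs, a choice made after seeing the data, the share difference dropped from 3.54 to 1.06 points, and the replicate overlap difference was -10.9 points.

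The percentage called in all 4 libraries, with minus without a run, was -5.59 points and became -6.44 with a minimum run of 15, -3.85 with windows of 50 bp, -6.62 with windows of 200 bp, -6.26 with −log10 q of at least 5, -6.90 with equal numbers of peaks and -16.3 when every peak of a region had to hold a run. The last of these rules disfavours regions with more peaks by construction, since each further peak must hold a run too. The same holds for the counts under that rule below. Without 1 library, all 3 remaining libraries were asked for, and the range was -6.49 to -5.83. Regions called only in control numbered 248 with a minimum run of 15 and 170 when every peak had to hold a run, and 681 to 684 without either si-N6AMT1 library. Regions called only in si-N6AMT1 numbered 617 with equal numbers of peaks and 503 when every peak had to hold a run, and 1620 to 1766 without either control library, 1766 being without control 2. Leaving out a library loosens these definitions by construction, and no count was made where a group's own library was left out. Depth is known only through the lowest background and not through read totals.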

Other observations

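Chromosomes differed in how often a summit held a run, and not in the order of the runs themselves. On chromosome 19, where 4.07% of positions have a run in their window, the highest share of the 23 chromosomes other than Y, runs were at 3.95% and 3.34% of summits in control against 6.79% and 7.36% in si-N6AMT1. On chromosome 3, where 2.03% of positions have one, they were at 16.2% and 13.8% in control against 18.3% and 18.7% in si-N6AMT1. Chromosomes 16 and 22, with 2.91% and 3.07% of positions, had mean shares of 8.23% and 8.91% over the 4 libraries, whereas chromosome 17, with 3.35% of positions, had 16.4%. These values are descriptions over 1 set of 4 libraries.

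The 20 mitochondrial peaks of the 4 lists are not members, and their summit windows were not searched for runs. Runs of at least 30 adenines were at the summit of 0.191% and 0.156% of nuclear peaks in control, or 58 and 52 peaks. In si-N6AMT1 the shares were 0.265% and 0.213%, or 103 and 87 peaks. A region in the promoter of ENSG00000286961 on chromosome 5, at chr5:22754429-22754885, had its run of 16 adenines at the summit in all 4 libraries, 84 bp inside the gene, with folds of 7.47 and 8.67 in control against 6.35 and 7.16 in si-N6AMT1.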
